A study of Mus musculus with 6 samples.

Results

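The D-type cyclins and the inhibitors of cyclin-dependent kinases (CDKs) were examined in brown adipose tissue (BAT), the fat depot that burns fuel for heat, of mice that lack KRAP, a cytoskeleton-associated protein. The family comprises 10 genes, the cyclins Ccnd1, Ccnd2 and Ccnd3, the CIP/KIP inhibitors Cdkn1a, Cdkn1b and Cdkn1c, and the INK4 inhibitors Cdkn2a, Cdkn2b, Cdkn2c and Cdkn2d, out of 18193 genes named on the array. All 22 probe sets that the platform annotation gives to 1 of these symbols alone were taken, and 0 further probe sets listed a member beside another gene. The family was chosen from KO against WT differences already known in these data, those of Ccnd1 and Cdkn2b, so the differences between genotypes are given for its members as a description, without a test. The study compared 3 KRAP-deficient (KO) with 3 wild-type (WT) mice that formed 3 littermate pairs, aged 32 weeks and fed normal chow. Biotinylated cRNA prepared from the total RNA of each animal was hybridised to 1 Affymetrix array. The KO mice carried in all tissues a neomycin resistance cassette in place of several exons of the KRAP gene. The line had been moved to a C57BL6/J background by backcrossing, and the WT animals were littermates without the cassette.

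D-type cyclins are the regulatory subunits of the kinases CDK4 and CDK6. Mitogens induce them, and the kinases they activate phosphorylate the retinoblastoma protein, which releases E2F transcription factors and lets a cell pass from G1 into DNA replication. INK4 proteins bind CDK4 and CDK6 directly and block their union with D-type cyclins, while CIP/KIP proteins bind cyclin-CDK complexes and mainly restrain CDK2. In fat, the same proteins limit the growth of preadipocytes and act in differentiated adipocytes, most of which no longer divide.

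Promoter sequence is shown for the pair of INK4 inhibitors whose KO and WT signals did not overlap, and which differed in opposite directions. Both genes lie on chromosome 4, and the stretches are the 250 bases before the annotated start on the minus strand, from RefSeq on GRCm38.p6, chr4:89311033-89311282 for Cdkn2b and chr4:109666757-109667006 for the first of 2 starts of Cdkn2c. Capitals mark the cyclic AMP response element TGACGTCA or the GC box GGGCGG, each searched on both strands.
Cdkn2b: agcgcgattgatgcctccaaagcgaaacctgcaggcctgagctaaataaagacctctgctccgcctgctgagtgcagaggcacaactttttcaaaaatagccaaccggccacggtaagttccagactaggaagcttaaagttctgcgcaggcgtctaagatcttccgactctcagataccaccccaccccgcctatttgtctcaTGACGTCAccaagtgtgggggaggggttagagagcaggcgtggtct
Cdkn2c: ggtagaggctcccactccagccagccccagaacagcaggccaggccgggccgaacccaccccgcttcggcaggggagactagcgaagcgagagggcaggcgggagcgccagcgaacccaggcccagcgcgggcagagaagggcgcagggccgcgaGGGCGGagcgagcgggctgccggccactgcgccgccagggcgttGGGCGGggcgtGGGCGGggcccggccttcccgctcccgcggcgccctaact
The Cdkn2b stretch held 1 cyclic AMP response element, from 46 to 39 bases before the start, a motif found in 1.55% of 32851 windows of this length, and 0 GC boxes. The motifs were chosen after the windows were seen, so this share does not measure how unusual the match is. Other motifs searched, among them the SMAD-type CAGACA, had 0 matches in the Cdkn2b stretch. The Cdkn2c stretch held 3 GC boxes, a motif found in 32.7% of windows, and 0 cyclic AMP response elements, and its GC content was 77.2% against 53.6% for Cdkn2b. The window of the second Cdkn2c start held 0 GC boxes and had a GC content of 42.8%, so neither feature was shared by both starts. Of the 10 members, 7 had an entry, with 11 windows in all, and the response element occurred in the Cdkn2b window alone among these 11. GC boxes did not set Cdkn2c apart. Windows of Ccnd3, Cdkn1a, Cdkn1b, Cdkn2a and Cdkn2d held them too, that of Cdkn2d also 3. A match of letters is a description of the sequence and does not show that a factor binds there. Ccnd1, Ccnd2 and Cdkn1c had no entry.

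Each signal below is divided by its array's median, and these medians lay between 16.5 and 20.4 intensity units. A probe set was tested when its mean over the 6 arrays exceeded 1, which 22356 of 45037 probe sets did. By the ratio of 3' to 5' actin signal, a sign of RNA quality, WT 2 differed from the rest (3.80 against 1.91 to 2.58), so values without pair 2 are given for members and named genes where they move by over 1.5 times or change sign. The 1 probe set that names KRAP ranged over 35.1 to 47.0 among KO and over 42.2 to 56.6 among WT arrays, and its place relative to the removed exons was not known, so it did not check the genotype labels. The 10 brown adipocyte markers on the array, Ucp1 and Cidea among them, all had a mean signal above the median. They summed to 1909 to 2691 in KO and 1929 to 2646 in WT. Both animals of pair 1 read high for Ppargc1a, 111.4 in KO 1 and 72.7 in WT 1, against 9.88 to 12.2 on the other arrays. Dio2 read 101.1 in KO 1 and 44.3 in WT 1, against 4.05 to 15.3 on the others. Cidea and Cox7a1 showed no such gap. In whole tissue, fewer cells of a type and less RNA per cell cannot be told apart.

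Cyclin D1 and the INK4 inhibitor Cdkn2b read lower in KO than in WT BAT in each littermate pair, Cdkn2c read higher, and the other members showed no common direction. Of the 22 probe sets, 16 were tested and 6 were too dim, and the tested ones covered 9 of the 10 genes, all but Cdkn2a. Among the 16, 5 were lower in KO in 3 of 3 pairs, beside 18.4% of all tested probe sets, and 1 was higher in 3 of 3 pairs, beside 12.4%. At the 1.5-fold change in every pair that the study used as its filter, 3 were lower, beside 0.819%, and 0 were higher, beside 0.555%. All KO arrays lay below all WT arrays on 4 probe sets, beside 7.16%, and above them on 1, beside 4.59%. These counts are set beside the background only as a description, since the members were chosen by this contrast. With limma, 0 of the 22356 probe sets passed an adjusted p of 0.05 (0% of those tested), members included, and 8.55% (1911) had an unadjusted p under that value. In simulated data the same fit called 4 of 150 planted log2 changes of 1, so 0 passing does not show an absence of such changes. Under 4 of the alternative settings 1 to 4 probe sets of Ccnd1 and Cdkn2b passed, which is no independent evidence, since both genes were selected on this contrast. The median log2 difference, KO minus WT, was -0.06 over the 16 probe sets and -0.05 over all tested ones.

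**Figure D1:**
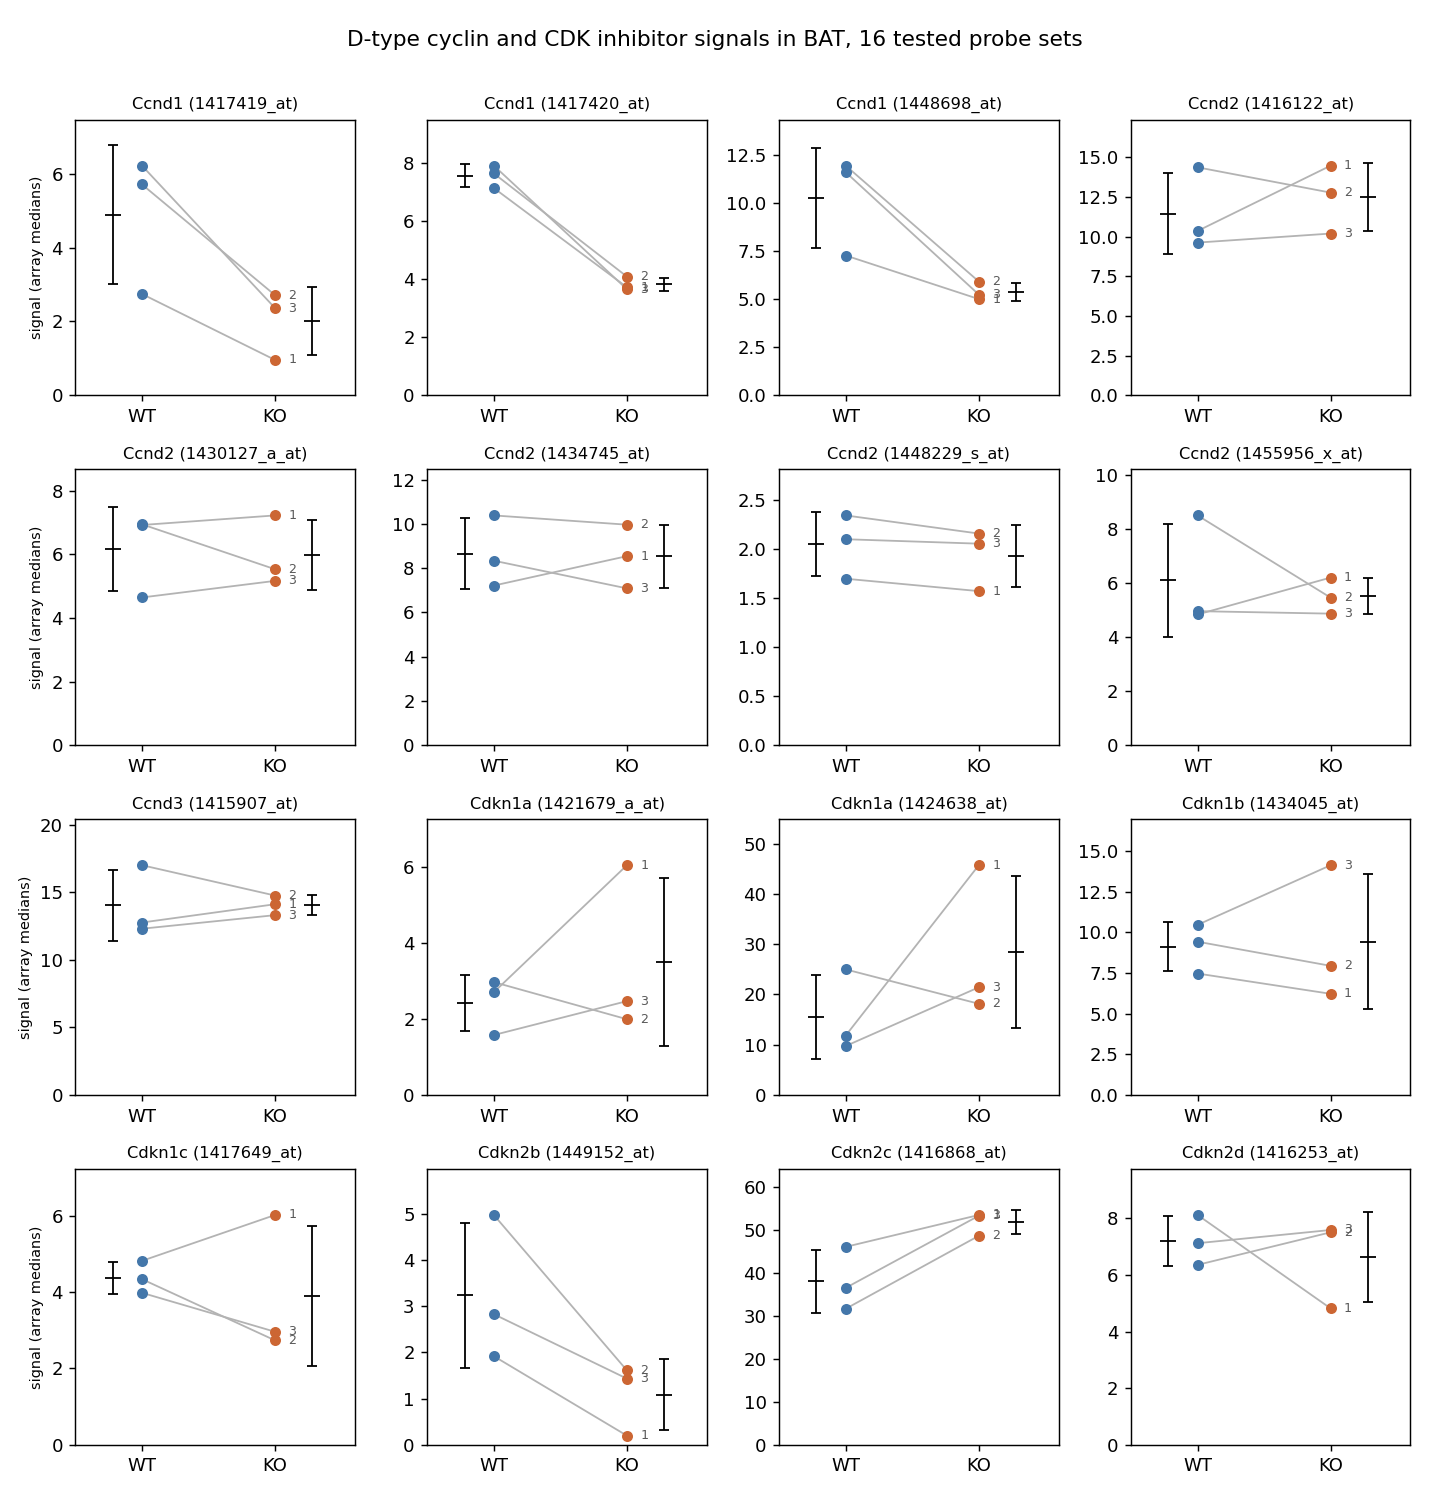
Signals of the 16 tested probe sets of D-type cyclins and CDK inhibitors in WT and KO BAT, in array medians, on linear axes from 0. Each point is 1 animal, a grey line links the 2 animals of a littermate pair (numbered), and bars give the mean and SD (n = 3 per group). The 3 probe sets of Ccnd1 and that of Cdkn2b lay lower in every KO animal than in every WT animal, and Cdkn2c lay higher.

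Cyclin D1 (Ccnd1), the D-type cyclin most closely tied to mitogen signalling, was read by 3 tested probe sets. The brightest one, 1448698_at, gave 4.998, 5.91 and 5.23 for KO 1, KO 2 and KO 3, against 7.26, 11.9 and 11.6 for WT 1, WT 2 and WT 3, the order used throughout. All KO animals lay below all WT animals, and WT 1 was the lowest of the WT group. Its means were 5.38 ± 0.474 in KO and 10.3 ± 2.60 in WT (SD, n = 3), a log2 difference of -0.90 (95% interval -1.41 to -0.39), which is 1.87-fold lower. The second, 1417420_at, read 3.72, 4.08 and 3.65 in KO and 7.12, 7.63 and 7.895 in WT. These groups were tight and well apart, with means of 3.81 ± 0.233 and 7.55 ± 0.391 (SD, n = 3), a log2 difference of -0.99 (95% interval -1.44 to -0.53). The third, 1417419_at, read 0.958, 2.71 and 2.36 in KO and 2.74, 5.71 and 6.22 in WT, where KO 2 came close to WT 1. Within pairs the KO over WT ratio of this probe set was 0.349, 0.475 and 0.380, a log2 difference of -1.33 (95% interval -1.81 to -0.85). The ratios were 0.688, 0.496 and 0.452 on the brightest probe set and 0.521, 0.535 and 0.462 on the second. All 3 probe sets thus gave ratios below 1 in all 3 pairs, while they differed in size, and the log2 difference with 1 pair left out ran from -1.46 to -0.78 across them.

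Cyclin D2 (Ccnd2), which relays signals such as those of insulin and growth factors in many tissues, was read by 5 tested probe sets with log2 differences of -0.10 to 0.13. The brightest, 1416122_at, read 14.5, 12.8 and 10.2 in KO and 10.4, 14.4 and 9.62 in WT. The groups overlapped throughout, and the difference of 0.13 had a 95% interval of -0.38 to 0.64. The probe set 1448229_s_at was lower in KO in 3 of 3 pairs, but by ratios of only 0.926, 0.921 and 0.978, less than the spread within either group. Its suffix marks a design that can also detect another gene, as that of 1455956_x_at marks one prone to cross-hybridisation. The other 4 probe sets went both ways across the pairs, and all 4 changed sign under at least 1 alternative. For 1416122_at and 1455956_x_at the sign changed only with a pair left out, not under other processing. Without pair 2 the differences of these 4 were 0.28 on 1416122_at, 0.11 on 1430127_a_at, 0.0048 on 1434745_at and 0.17 on 1455956_x_at. A further 2 probe sets of Ccnd2 were below the median on all 6 arrays. Cyclin D3 (Ccnd3), the D-type cyclin that persists in many differentiated cells, read 14.1, 14.8 and 13.3 in KO and 12.8, 17.0 and 12.3 in WT on 1415907_at. The means of 14.07 ± 0.728 and 14.03 ± 2.59 (SD, n = 3) almost coincided, and the log2 difference of 0.02 had a 95% interval of -0.45 to 0.49 and was 0.13 without pair 2. Its other 2 probe sets were too dim to be tested, with 1444323_at, at means of 0.617 in KO and 1.11 in WT, the closest below the limit. The dimmest tested probe set of the family was 1448229_s_at of Ccnd2, at 1.93 and 2.05.

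Of the CIP/KIP inhibitors, Cdkn1a, which encodes p21 and is induced by p53 and by stress, varied most between animals. Its brighter probe set, 1424638_at, read 45.7, 18.1 and 21.4 in KO and 11.8, 25.0 and 9.72 in WT. KO 1 stood far above the other 5 arrays, and the KO of pair 2 lay below its WT littermate. The KO over WT ratios were 3.87, 0.726 and 2.20, with a log2 difference of 0.88 (95% interval -0.16 to 1.92). This was 0.34 without pair 1 and 1.55 without pair 2. The dimmer probe set, 1421679_a_at, read 6.06, 1.99 and 2.47 in KO and 2.71, 2.97 and 1.58 in WT, with ratios of 2.24, 0.671 and 1.57. Both probe sets thus put pair 1 highest and pair 2 below 1, and the difference of the dimmer one was 0.41, 0.04 without pair 1 and 0.90 without pair 2.

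Cdkn1b, which encodes p27 and holds resting cells out of the cycle, read 6.22, 7.94 and 14.1 in KO and 7.47, 9.43 and 10.5 in WT on 1434045_at. The groups overlapped, and the ratios of 0.833, 0.842 and 1.35 gave a log2 difference of -0.03 (95% interval -0.56 to 0.51), which was 0.08 without pair 2 and -0.26 without pair 3. Its second probe set, 1419497_at, did not exceed 0.466 of the median on any array. Cdkn1c, the imprinted gene for p57, read 6.02, 2.73 and 2.96 in KO and 4.81, 4.34 and 3.98 in WT. KO 2 and KO 3 lay below all WT animals and KO 1 above them. The difference was -0.26 (95% interval -0.85 to 0.34), and it was -0.55 without pair 1 and -0.05 without pair 2.

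**Figure D2:**
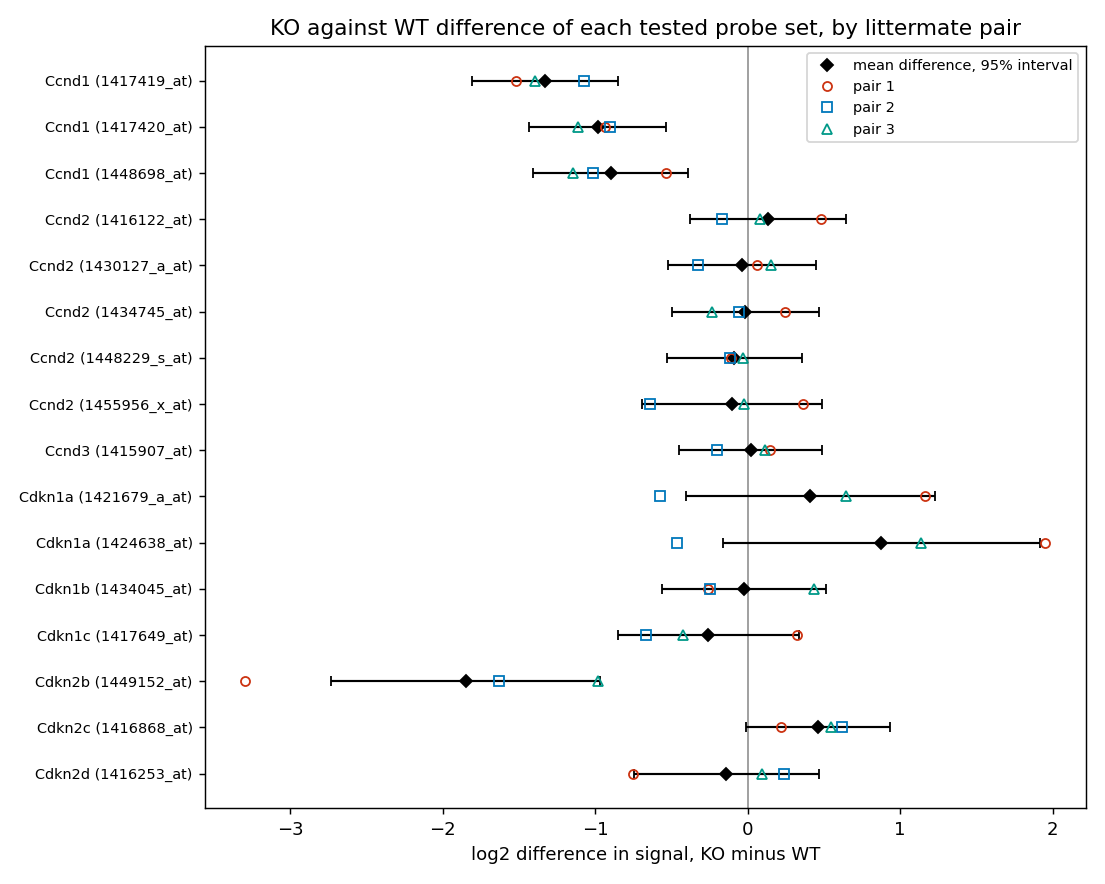
Log2 difference in signal, KO minus WT, for each tested probe set of the cyclins and inhibitors. Diamonds with bars are the mean over the 3 pairs with its 95% interval from limma, with signals below 0.25 of the median raised to it, and open symbols are single littermate pairs without that floor. The 3 Ccnd1 probe sets and Cdkn2b sit left of 0 in every pair, pair 1 lies far from pairs 2 and 3 for Cdkn2b and Cdkn2d, and the pairs of Cdkn1a spread to both sides of 0.

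Among the INK4 inhibitors, Cdkn2b, which encodes p15 and is a known target of TGF-beta signalling, had the largest difference of the family. Its single probe set, 1449152_at, read 0.195, 1.61 and 1.43 in KO and 1.92, 4.98 and 2.83 in WT. All KO animals lay below all WT animals, and KO 1 lay under the floor of 0.25 of the array median. The KO over WT ratios were 0.102, 0.323 and 0.506, and the means were 1.08 ± 0.770 and 3.24 ± 1.57 (SD, n = 3). With the floor in place the log2 difference was -1.85 (95% interval -2.73 to -0.97), or 3.61-fold lower, and -1.31 without pair 1. The signal was near the array median, so the size of this difference depended on how dim signals were treated, down to -1.05 with a pseudocount of 1 median in place of the floor.

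Cdkn2c, which encodes p18, was the 1 member that was higher in KO in 3 of 3 pairs. It read 53.4, 48.6 and 53.2 in KO and 46.0, 31.6 and 36.5 in WT, so that the lowest KO lay just above the highest WT. The ratios were 1.16, 1.54 and 1.46, and the log2 difference of 0.46 had a 95% interval of -0.01 to 0.93, which includes 0. It was 0.38 without pair 2. Cdkn2d, which encodes p19, read 4.82, 7.51 and 7.59 in KO and 8.12, 6.36 and 7.12 in WT, with KO 1 alone below the WT range. Its difference of -0.14 (95% interval -0.75 to 0.46) was 0.17 without pair 1 and -0.33 without pair 2. Cdkn2a, whose locus encodes p16 and, in another reading frame, ARF, did not exceed 0.670 of the median on any array, and 3 of its 6 signals were below the floor, so no difference was read from it.

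One array was often at an extreme among the members. KO 1 was the highest or the lowest of the 6 arrays on 12 of the 16 tested probe sets (75%), against 39.4% over all tested probe sets. This share is a description, since the 12 include repeat probe sets of Ccnd1, Ccnd2 and Cdkn1a. Ccnd1 and Cdkn2b were also chosen on their KO against WT difference. Some extremes were near ties, as for Cdkn2c (53.4 in KO 1, 53.2 in KO 3) and Ccnd2 on 1416122_at (14.5 in KO 1, 14.4 in WT 2). It was the highest of the arrays for Cdkn1a on both probe sets, Cdkn1c, Cdkn2c and 2 probe sets of Ccnd2. It was the lowest for Ccnd1 on 2 of 3 probe sets, for 1 of Ccnd2, and for Cdkn1b, Cdkn2b and Cdkn2d. Without pair 1, the Ccnd1 differences were -1.24, -1.01 and -1.08 and that of Cdkn2c was 0.58.

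The genes whose signals followed those of Ccnd1 and Cdkn2b most closely over the 6 arrays are given as a description, since 6 arrays that share genotype and pair allow many high correlations. For Ccnd1 (1448698_at) these were Zfp81, Sirpa and Ptpn21, with Pearson correlations of 0.994, 0.993 and 0.990, and 145 of 11131 genes exceeded 0.9. Sirpa, a receptor on myeloid cells, lay at 3.19 to 3.59 among KO arrays and at 3.77 to 4.53 among WT arrays. For Cdkn2b they were Scd2, Sh3tc1 and Tbc1d14, with correlations of 0.996, 0.995 and 0.992, and 292 genes exceeded 0.9. The correlations were taken on log2 signals after the floor of 0.25. KO 1 was raised to this floor for both Cdkn2b (0.195) and Sh3tc1 (0.119), so their shared low point was set by it. Scd2, a stearoyl-CoA desaturase, read 21.2, 123.5 and 119.7 in KO and 132.8, 301.3 and 179.2 in WT, with KO 1 lowest as for Cdkn2b.

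To place the family in its pathway, 10 lists of other cell cycle genes were read from the same fit. Of 197 listed genes 152 were tested, and 0 passed the limma adjusted test in either direction. Of these 152, 12 had an unadjusted limma p under 0.05, 9 lower and 3 higher in KO, where 8.55% of all tested probe sets did. In 3 of 3 pairs, 30 were lower and 17 higher, where 19.7% and 10.9% of 11140 tested genes were. Their median log2 difference was -0.08, against -0.07 over all genes.

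Downstream of the D-type cyclins, 10 of 10 genes for G1 kinases and their partners were tested, with 1 lower and 2 higher in 3 of 3 pairs and a median of -0.04. Cdk4, the partner of the D-type cyclins, read 12.9, 10.9 and 9.30 in KO and 7.92, 10.1 and 9.21 in WT, a log2 difference of 0.27 (95% interval -0.25 to 0.80), and of 0.06 without pair 1. Cdc25a, a phosphatase that activates CDKs, differed by 0.46 and Cdc37, a chaperone partner of CDK4, by -0.33. Among 14 tested retinoblastoma and E2F genes, 3 lay lower and 1 higher in all pairs (median -0.14). Lin52, E2f3 and E2f6 differed by -0.64, -0.56 and -0.44, but Lin52 by -0.27 without pair 3 and E2f3 by -0.17 without pair 2. Among 15 tested DNA replication genes, 2 lay lower and 4 higher in all pairs (median 0.08), and Gins1, Mcm2 and Mcm7, parts of the replicative helicase, differed by 0.81, -0.30 and 0.29. Gins1, which WT 2 read at 0.369, differed by 0.42 without pair 2, Mcm2 by -0.13 without pair 1 and Mcm7 by 0.17 without pair 3. Of 19 mitosis genes on the array, 14 were too dim to be tested, with mean signals of 0.130 to 0.983, and these included Mki67, Top2a, Cdk1 and Ccnb2. The 5 tested ones, 2 lower and 1 higher in all pairs, had a median of -0.28. Smc2, a condensin subunit, read 0.713, 0.751 and 0.609 in KO and 1.56, 1.70 and 1.09 in WT, 2.07-fold lower (limma adjusted p = 0.396), and Smc4 and Cenpa differed by -0.28 and 0.30, the latter by 0.15 without pair 3.

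**Figure D3:**
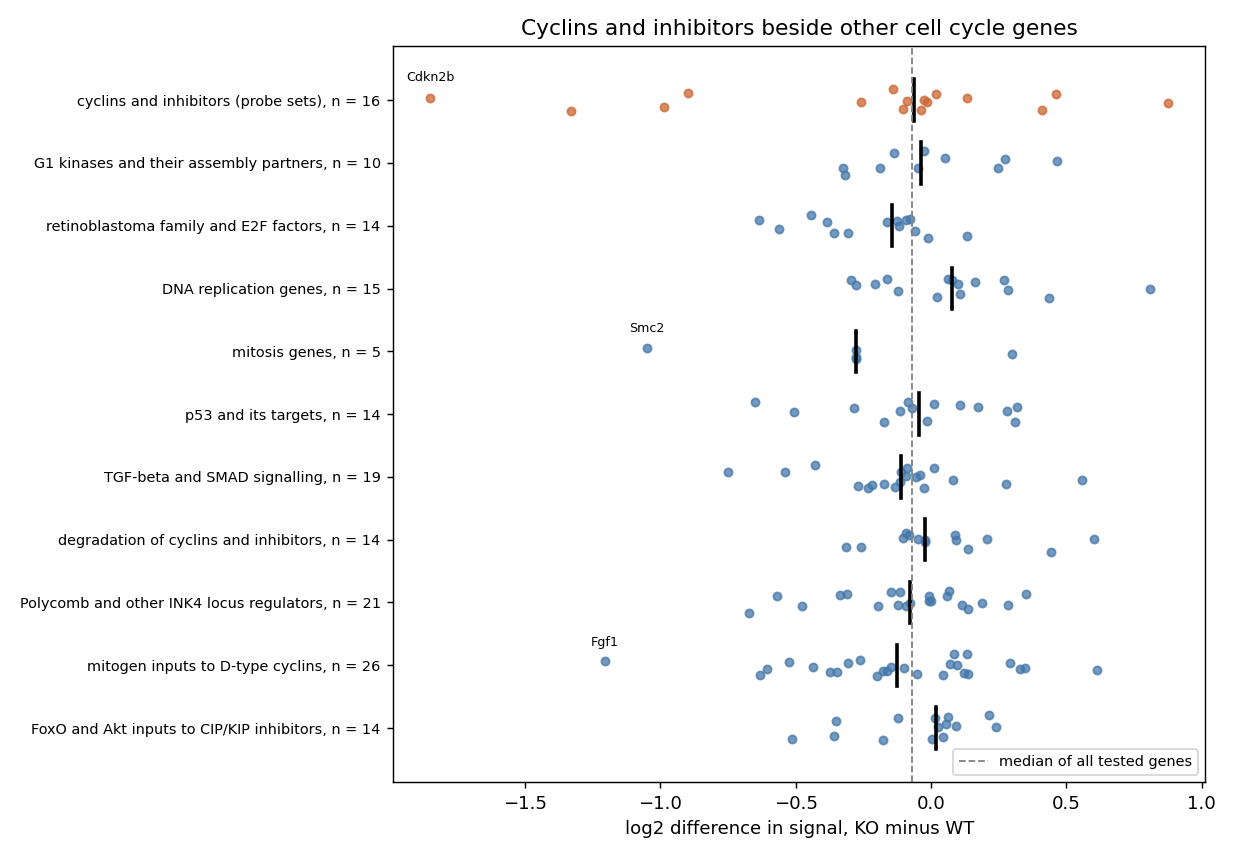
Log2 difference in signal, KO minus WT, of the 16 tested cyclin and inhibitor probe sets (top row) and of the tested genes of 10 other cell cycle lists, each gene by its brightest tested probe set. Points are probe sets or genes, short bars are medians and the dashed line is the median of all tested genes, -0.07. List medians lay between -0.28 and 0.08, and Fgf1 and Smc2 were the lowest of the listed genes.

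Upstream of the cyclins, 26 mitogen input genes were tested, with 6 lower and 0 higher in all pairs (median -0.12). Fgf1, a fibroblast growth factor made in fat, read 4.19, 8.77 and 9.15 in KO and 10.7, 21.8 and 17.6 in WT. Every KO value was below every WT value, at 2.31-fold lower, with ratios of 0.391, 0.402 and 0.518 (limma adjusted p = 0.394). Igf1, an insulin-like growth factor, and Jun, a subunit of AP-1, differed by -0.61 and -0.53, with overlapping groups. The TGF-beta list, chosen as the input to Cdkn2b, had 9 of 19 genes lower and 2 higher in all pairs (median -0.11), where 19.7% and 10.9% of all tested genes were. Some of the 9 differed little, such as Smad4 with ratios of 0.958, 0.986 and 0.944 and Zbtb17 with 0.994, 0.997 and 0.925. In this list 0 genes passed the limma adjusted test, and its part in the Cdkn2b values was not tested. Smad7, a feedback inhibitor that this pathway induces, differed by -0.75 (limma adjusted p = 0.469), Skil, another feedback inhibitor, by -0.54 and the ligand gene Tgfb3 by 0.56. The Skil difference was -0.19 without pair 2 and that of Tgfb3 0.36 without pair 3. Among 21 tested Polycomb and INK4 locus genes, 2 lay lower and 1 higher in all pairs (median -0.08), with Cbx8 and Id3 at -0.67 and -0.57 and the demethylase gene Kdm6b at 0.14. Each moved with 1 pair left out, to -0.42 for Cbx8 without pair 3, to -0.24 for Id3 without pair 2 and to 0.02 for Kdm6b without pair 1.

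Upstream of the CIP/KIP inhibitors, p53 and its targets gave 14 tested genes, with 3 lower and 1 higher in all pairs (median -0.04). Phlda3, a p53 target, read 70.3, 110.8 and 104.3 in KO and 115.5, 191.2 and 141.9 in WT, a log2 difference of -0.65 (limma adjusted p = 0.471). Gadd45a and Btg2, which p53 also induces, differed by -0.51 and 0.31. Among the tested genes of this list, KO 1 was the lowest array for Mdm2, Mdm4, Bbc3, Gadd45a, Ccng1, Phlda3, Zmat3, Trp53inp1 and Rrm2b. It was the highest for Sesn2, Ddit4 and Ei24, as for Cdkn1a, itself a p53 target. The part of p53 in the Cdkn1a values was not tested. Among 14 FoxO and Akt genes, 2 lay lower and 2 higher in all pairs (median 0.02), with Pik3r1 at -0.51, Cebpa at 0.24 (0.15 without pair 2) and Foxo4 at 0.21 (0.04 without pair 1). Among 14 tested genes for the degradation of cyclins and inhibitors, 0 lay lower and 3 higher in all pairs (median -0.02). Fbxo31, the substrate receptor of a ubiquitin ligase that targets cyclin D1, read 11.7, 12.6 and 17.8 in KO and 9.55, 6.61 and 11.8 in WT, a difference of 0.60 (limma adjusted p = 0.520). Usp2, which removes ubiquitin from cyclin D1, differed by 0.44 and Cul1 by 0.09.

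Markers of cell types that share the tissue are set beside these results, and some differed between the groups. Over all tested genes, 19.7% were lower and 10.9% higher in 3 of 3 pairs. The 12 fibroblast and preadipocyte markers on the array, all above the median on average, summed to 292.8 to 347.9 in KO and 252.2 to 274.7 in WT, with 7 higher and 1 lower in all pairs. The 6 Schwann cell markers on the array summed to 70.6 to 81.3 in KO and 90.5 to 141.2 in WT. This gap was carried by S100b, which read 14.9 to 22.6 in KO and 43.1 to 71.7 in WT. In all pairs 1 marker was lower, S100b itself, and 1 was higher, Sox10. Among 12 endothelial markers, 5 lay lower and 0 higher in each pair, and their sums of 95.4 to 120.0 in KO overlapped the 115.2 to 124.8 in WT. The white adipocyte markers, 8 of 11 with a mean above the median and Agt, Hoxc10 and Tcf21 below it, summed to 74.0 to 110.8 in KO and 92.2 to 127.3 in WT. Retn was the largest part of the KO sums, at a mean of 60.8 in KO and 31.0 in WT, 1.93-fold higher in KO. Npr3 was the largest part of the WT sums, at a mean of 43.6 in WT and 16.2 in KO. Of the 8 tested 5 lay lower and 2 higher, Retn and Hoxc9 (2.32-fold), in each pair, with a median log2 difference of -1.53. The list was drawn up with earlier results of these data known, so this median is a description and no evidence on white adipocytes. The lower ones were Lep at 4.19-fold, Sncg at 3.65-fold, Mest at 3.19-fold, Nnat at 3.15-fold and Npr3 at 2.67-fold lower (limma adjusted p = 0.211 to 0.403). The sums of the 12 macrophage markers were 135.1 to 149.5 in KO and 118.1 to 153.3 in WT, with Itgam alone below the median. Of the 11 tested, 4 lay higher and 2 lower in each pair, with Cd163 2.45-fold higher and Mpeg1 1.80-fold lower, each without overlap between the groups. Skeletal muscle markers ranged from 96.0 to 1017 in KO, highest in KO 2, and from 183.0 to 454.9 in WT, and 8 of 10 lymphocyte markers were below the median. The part of these cell types in the cyclin and inhibitor values was not tested.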

How the data were processed

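Biotinylated cRNA prepared from total RNA of BAT of 3 KO and 3 WT mice had been hybridised to Affymetrix Mouse Genome arrays, 1 per animal. The authors deposited linear intensity values, 1 for each probe set, from the GCOS software, whose version and scaling target the sources used here do not give. Control probe sets, 64 in all, were set aside, intensities were scaled to the array median, following the study's methods, signals below 0.25 were raised to 0.25, and log2 was taken. Gene names came from the platform annotation, with 34945 probe sets of 1 symbol, 932 of several and 9160 of none. The members, the gene lists and the rule for naming genes (all members, and in each list up to 3 genes with the largest difference among those of the same sign in 3 of 3 pairs) were chosen with earlier results of these data known, and the motifs after the windows were seen. For Ccnd1 and Cdkn2b the 3 genes with the highest Pearson correlation over the arrays are named too.

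The linear model held genotype and littermate pair (limma 3.58.1, R 4.3.3) and was fitted to all tested probe sets with Benjamini-Hochberg adjustment, and a gene stands by its brightest tested probe set. The design text describes the pairs as littermates, and the correlations of littermates' deviations from their group means were 0.446, 0.0847 and 0.160. Between a KO and a WT animal of different pairs they ran from -0.359 to 0.281, so pair 1 alone lay above that range. In simulated data with planted changes, the fit called 4 of 150 at a log2 change of 1 and 125 of 150 at 2. It called 22 of 66468 unchanged probe sets over the runs. Most changes near log2 1 would thus not pass. Alternatives tried were no pair block, other scalings, floors, filters and a variance prior with an intensity trend, and leaving out each pair. Precision is limited by the small number of arrays.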

Additional observations from a re-analysis of the deposited data

How the results depend on the processing

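Without the replicate block, with signals as deposited, after quantile normalization, with a floor at 0.05 or 0.5 of the median and without a filter, 0 probe sets passed the limma adjusted test, as in the paired fit, where 1911 had an unadjusted p under 0.05 (1283 without the block). The count was 123 with a pseudocount of 1 median, 40 with a filter above 2 and 311 when the prior followed intensity and was robust, and 0 to 224 with 1 pair left out, the 224 without pair 1. Members among them were 3 probe sets with the pseudocount (Ccnd1 and Cdkn2b), 2 with the filter above 2 (Ccnd1 and Cdkn2b), 4 with the robust prior (all 3 of Ccnd1, and Cdkn2b) and 1 without pair 1 (Cdkn2b), and they are no independent evidence since the members were chosen on this contrast. Of the other cell cycle genes, 1 passed with the pseudocount (Fgf1), 1 with the filter above 2 (Fgf1) and 2 with the robust intensity prior (Fgf1 and Phlda3), and 0 passed in the other alternatives, including averaging a gene's probe sets and each pair left out (0 to 0).

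Of the 16 tested probe sets of the cyclins and inhibitors, 9 kept their sign under all alternatives run, among them those of Ccnd1, Cdkn1a, Cdkn1c, Cdkn2b and Cdkn2c, and 7 with small differences changed sign under at least 1. Differences ran from -2.28 to -1.05 for Cdkn2b and from 0.38 to 0.58 for Cdkn2c. Under the alternatives 172 values of these probe sets moved by less than the spread between pairs. Dropping the block or changing the filter leaves these differences unchanged by design, and the other floors altered only that of Cdkn2b. Such alternatives are therefore no check of sign or size. The 172 also include changes of sign, such as Cdkn2d at 0.17 without pair 1 against -0.14. The other 3 were Ccnd1 with the pseudocount (-0.96 on 1417419_at, -0.83 on 1417420_at) and Ccnd2 on 1448229_s_at with signals as deposited (-0.03). Signals near the array median, as for Cdkn2b, limit what can be read from the size of a ratio, and with 3 pairs the intervals are wide.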
